A study of Mus musculus with 26 samples.

Results

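Methylated DNA was looked for inside accessible chromatin of mouse embryonic stem cells. Of 66726 distinct regions in the merged M-ATAC peak list, 40582 were measured, meaning that at least 3 different cytosines each had 5 or more bisulfite reads, and 6255 of these (15.4%) carried 20% or more methylated reads when the reads of those cytosines were added up. These methylated regions were chosen by their measured methylation, so their methylation levels are a description and are not tested. They comprised 5456 regions at 20 to 50%, including 93 at exactly 50%, and 799 regions over 50%. The other 34327 measured regions, under 20%, serve as the comparison.

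M-ATAC tags open chromatin with a transposase carrying methylated adaptors and then converts the fragments with bisulfite, so the same reads report accessibility and cytosine methylation. The cells were KH2 mESC kept in serum and LIF on irradiated feeder cells, from which they were pre-plated before use, and the deposited lists cover M-ATAC (4 samples), unconverted aliquots of M-ATAC termed M-ATAC-NC (2), ATAC-seq with the Nextera transposase (2), CTCF M-ChIP (2), its unconverted aliquots (2) and CTCF ChIP-seq (2). A second set came from Klf4-/- mESC, which received a doxycycline-induced lentivirus encoding WT KLF4 (2) or KLF4 with the R462A substitution (2), or were profiled by KLF4 ChIP-seq without KLF4 (2). The lists used here as WT and mutant KLF4 peaks sit under sample titles that name M-ATAC, whereas their library names and their peak caller are the ones given for KLF4 M-ChIP, and every KLF4 value below carries that doubt. Methylation, the merged peak lists and expression (TPM, scaled for transcript length and library size, from 2 RNA-seq libraries) were deposited only as merged tables without replicates, and which of the 4 M-ATAC samples were merged is not stated. All 9 embryonic stem cell marker genes were at 1 TPM or more, from 132 for Fgf4 to 5394 for Dppa5a, with a sum of 8919. Of 12 markers of feeder fibroblasts 11 also reached 1 TPM, from 0.08 for Lum to 48.7 for Col1a1 with a sum of 214, and what such cells added to the methylated regions was not tested.

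In mammals DNA methylation is placed mainly on cytosines of CpG dinucleotides, and most of the genome outside CpG islands carries it. Open promoters, enhancers and sites bound by proteins such as CTCF, an insulator protein with zinc fingers, are usually low in methylation, while CpG-rich promoters of many germ cell genes and one parental copy of imprinted genes are methylated in somatic cells. KLF4 is a zinc finger pluripotency factor whose motif can hold a CpG.

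The letters below are forward-strand GRCm38 (mm10) sequence of 9 of the methylated regions, from RefSeq, shown because the results turn on them. Capitals mark CpGs with at least 1 counted cytosine (5 or more M-ATAC reads). Asz1, Mov10l1, Slc25a31, Brdt and Btbd18 are CpG-rich starts of genes that act in germ cells, Stra8 and Eya2 are bound by CTCF, Vgll4 had many reads, and Sfi1 stands for copied sequence. Bases annotated as untranslated were left out at Mov10l1, Slc25a31 and Brdt, and Mov10l1, Btbd18, Stra8 and Vgll4 were limited to 300 bases.
Asz1, chr6:18109060-18109197, covering a transcription start: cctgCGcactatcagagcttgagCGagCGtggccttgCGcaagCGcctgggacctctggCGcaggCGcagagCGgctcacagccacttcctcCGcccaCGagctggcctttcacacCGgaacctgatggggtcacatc
Mov10l1, chr15:88982609-88982908, at a transcription start: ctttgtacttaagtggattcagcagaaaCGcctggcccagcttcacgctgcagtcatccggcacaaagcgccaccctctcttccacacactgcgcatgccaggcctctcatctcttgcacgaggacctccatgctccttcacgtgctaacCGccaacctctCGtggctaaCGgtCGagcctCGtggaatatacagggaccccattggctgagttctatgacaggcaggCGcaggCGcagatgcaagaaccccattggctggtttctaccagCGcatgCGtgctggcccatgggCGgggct
Slc25a31, chr3:40708716-40708854, at the 5′ end of a region covering the start: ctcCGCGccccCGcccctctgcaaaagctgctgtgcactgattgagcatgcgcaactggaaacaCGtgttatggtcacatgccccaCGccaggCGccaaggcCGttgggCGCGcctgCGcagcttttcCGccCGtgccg
Brdt, chr5:107330945-107331158, at a transcription start: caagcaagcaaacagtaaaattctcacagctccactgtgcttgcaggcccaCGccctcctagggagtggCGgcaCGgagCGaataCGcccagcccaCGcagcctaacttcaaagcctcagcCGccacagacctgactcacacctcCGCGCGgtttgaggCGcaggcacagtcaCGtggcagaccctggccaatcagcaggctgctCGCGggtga
Btbd18, chr2:84658929-84659228, at a transcription start: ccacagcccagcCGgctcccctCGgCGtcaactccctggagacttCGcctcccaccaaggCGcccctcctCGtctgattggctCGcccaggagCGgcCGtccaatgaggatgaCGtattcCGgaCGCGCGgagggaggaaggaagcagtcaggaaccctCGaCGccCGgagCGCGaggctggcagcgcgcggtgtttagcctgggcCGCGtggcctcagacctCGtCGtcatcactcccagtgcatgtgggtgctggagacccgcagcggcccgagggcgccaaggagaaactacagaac
Stra8, chr6:34921931-34922230, in an intron: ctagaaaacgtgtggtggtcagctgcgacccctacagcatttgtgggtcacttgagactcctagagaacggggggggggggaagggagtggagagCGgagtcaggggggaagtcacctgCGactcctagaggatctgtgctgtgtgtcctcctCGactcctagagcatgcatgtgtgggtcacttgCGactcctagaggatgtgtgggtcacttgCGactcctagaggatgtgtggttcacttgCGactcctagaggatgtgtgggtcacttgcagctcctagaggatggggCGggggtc
Eya2, chr2:165716830-165717000, in an intron: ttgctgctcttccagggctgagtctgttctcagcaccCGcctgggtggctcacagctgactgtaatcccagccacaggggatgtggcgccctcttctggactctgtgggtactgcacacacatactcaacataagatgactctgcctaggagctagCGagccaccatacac
Vgll4, chr6:114888975-114889274, in an intron: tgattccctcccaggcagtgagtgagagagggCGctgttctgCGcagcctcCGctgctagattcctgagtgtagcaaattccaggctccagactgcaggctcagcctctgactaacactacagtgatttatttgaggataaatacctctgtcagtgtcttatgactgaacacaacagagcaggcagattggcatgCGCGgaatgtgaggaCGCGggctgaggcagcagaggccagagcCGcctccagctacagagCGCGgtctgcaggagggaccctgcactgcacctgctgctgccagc
Sfi1, chr11:3146076-3146220, in an exon: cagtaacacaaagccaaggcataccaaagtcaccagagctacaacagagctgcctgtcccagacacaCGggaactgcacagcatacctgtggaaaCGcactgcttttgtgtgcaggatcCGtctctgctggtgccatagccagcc

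The region at the Asz1 start (chr6:18109060-18109197) carried 45 methylated of 72 reads, or 62.5% (Wilson 95% interval 51.0 to 72.8), with all 11 counted CpGs between 33.3% and 100%. Asz1 encodes a germ cell protein of the piRNA pathway, and its transcript was at 0.04 TPM. The start of Mov10l1, the gene of an RNA helicase that makes piRNAs, carried 47.1% (36.8 to 57.6) over 85 reads. The region over the start of Slc25a31, a mitochondrial ADP/ATP carrier of germ cells (chr3:40708716-40709170), carried 31.7% (23.4 to 41.3) over 101 reads, all in the stretch printed above. At Brdt, which encodes a testis bromodomain protein, the region chr5:107330945-107331253 carried 72 methylated of 337 reads (21.4%, 17.3 to 26.1), and no cytosine exceeded 50%. A second region at a Brdt start carried 3 methylated of 359 reads (0.836%). Read numbers of a region are sums over its counted cytosines, so a read that covers several of them is counted at each. At Asz1 each of the 11 cytosines had 5 to 9 reads. The intervals cover counting error only and are likely too narrow, since reads of one fragment are not independent.

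The plot of single cytosines shows that the methylated reads of these germ cell genes were spread over many CpGs rather than sitting on 1 of them. At Btbd18, a gene for piRNA precursor transcription in testis, 141 of 277 reads were methylated (50.9%, 45.0 to 56.7) and the 29 counted cytosines ranged from 16.7% to 100%. Rpl10l, an intronless ribosomal protein gene used in spermatogenesis (chr12:66284071-66284514), carried 26.6% (20.8 to 33.4) over 184 reads. Transcript levels were 8.87 TPM for Mov10l1, 1.45 for Slc25a31, 3.20 for Brdt, 2.17 for Btbd18 and 11.2 for Rpl10l, so the germ cell genes with methylated starts were not all silent in the RNA table.

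**Figure D1:**
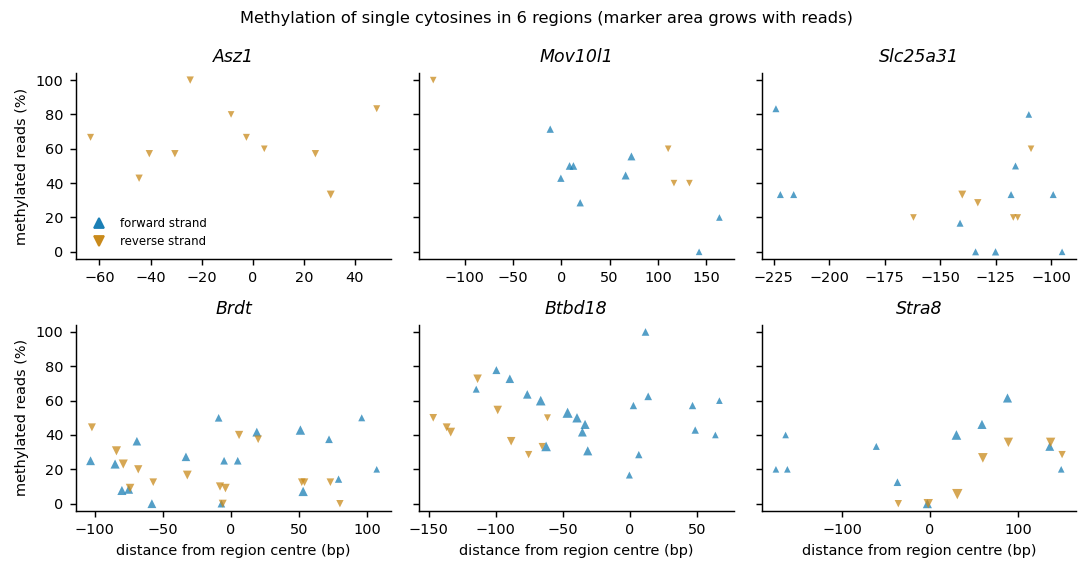
Percentage of methylated M-ATAC reads (y axis) at each counted cytosine against its distance from the region centre in bp (x axis) in 6 methylated regions, with upward triangles for the forward and downward triangles for the reverse strand and marker area growing with the number of reads. Cytosines at Asz1 lie between 33.3% and 100%, those at Btbd18 between 16.7% and 100%, and those at Brdt between 0% and 50%.

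A list of 34 germline genes had 37 measured regions with a list member as nearest gene, or as nearest gene with a TPM value, and 8 of them (21.6%) were methylated, compared with 15.4% of all measured regions. Within 3 kb of a transcription start of any gene the numbers were 7 of 30 regions (23.3%), beside 6.47% of all measured regions that close to a start. Besides Asz1, Mov10l1, Slc25a31, Brdt and Rpl10l these were Stra8, which acts at the start of meiosis, and Dpep3, which encodes a testis dipeptidase (chr8:105975497-105975632, 51.2%, 36.8 to 65.4, over 43 reads). The start nearest to that region is of Gm45752, 2400 bp away, and that of Dpep3 is 3797 bp away. The eighth, 10153 bp from Hormad2, a gene of the meiotic chromosome axis, carried 23.3% over 30 reads. Of the 30 regions within 3 kb of a start 11 were under 5%, among them Dazl (1.25% over 1281 reads) and Tdrkh (1.54% over 1620 reads). Another 12 were at 5 to 20%, up to 18.5% over 205 reads at Mael, just under the limit. The median of the 30 was 9.07%. Expression of the 8 genes with a methylated region had a median of 3.04 TPM, against 7.55 TPM for the measured genes of the list.

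The 54 imprinted genes gave a different count. By the same assignment they had 124 measured regions, of which 9 (7.26%) were methylated, beside 15.4% of all measured regions. Of the 77 within 3 kb of a start of any gene none was, beside 6.47% of all measured regions that close to a start. The highest of the 77 was 14.4% near Grb10. The methylated ones lay at a distance from starts, and the highest was a region in an intron of Commd1 (chr11:22917929-22918060), where 19 of 21 reads were methylated (90.5%, 71.1 to 97.3) in sequence that is 86.4% repeat-masked. Near Mirg (chr12:109790297-109790748) 22 of 30 reads were methylated (73.3%), with the start of Mirg 42333 bp and that of Gm9661, the nearest gene, 36255 bp away. Near Peg13 (chr15:72859353-72859550) the value was 45.0% (34.6 to 55.9) over 80 reads. The remaining 6, near Gpr1, Ddc, Slc38a4 and Sfmbt2, lay between 20.2% and 48.1%, and 1 of those assigned to Slc38a4 was nearer to Gm32885 (40583 against 70185 bp). Pluripotency factors had 1 methylated region among 74, in a Klf5 exon (chr14:99313231-99313361, 25.9% over 81 reads). Lineage transcription factors had 1 among 66, near Pax7 (25.6% over 78 reads), and DNA methylation enzymes 1 among 30, in an intron of Dnmt3a (47.1% over 34 reads). None of 28 regions nearest to Hox genes, 3 nearest to Ctcf or Klf4 and 1 nearest to a Rhox gene was methylated. The sets of 3 and 1 regions are too small to compare with the 15.4% of all measured regions, and no list was tested against that share.

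Chemosensory receptor genes, which are silent outside sensory neurons, had a larger share of methylated regions than the measured regions as a whole. Families taken by their gene names were assigned by the nearest gene with a TPM value. Of 87 measured regions nearest to an olfactory receptor gene 34 (39.1%) were methylated, 10 of them over 50%, with 12 of 26 (46.2%) within 3 kb of a start, and of 38 nearest to a vomeronasal receptor gene 12 (31.6%), but only 1 of 12 (8.33%) within 3 kb of a start. Of all measured regions 15.4% were methylated, and 6.47% of those near starts. Zinc finger genes named Zfp had 53 of 622 (8.52%), and clustered protocadherins 1 of 27. Of 270 regions nearest to genes named Rpl or Rps 47 (17.4%) were methylated, a share near that of all measured regions, and 36 of these 47 were nearest to pseudogenes and 5 to Rps6k kinase genes.

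Methylated regions were short of CpGs. The median region held 1.61 CpGs per 100 bp (quartiles 1.09 to 2.34) at 20 to 50% and 1.68 (1.13 to 2.54) over 50%, against 3.45 (1.61 to 7.53) under 20%. Median GC content was 51.1% and 50.8%, against 57.1%. The difference in CpG density lay near transcription starts, where the medians were 1.77 and 1.75 CpGs per 100 bp in methylated regions and 6.60 in regions under 20%. Farther away they were 1.56, 1.65 and 1.74. The germ cell gene starts printed above are at the other end of this range, with 7.97 CpGs per 100 bp at Asz1, 7.77 at Brdt and 10.3 at Btbd18.

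**Figure D2:**
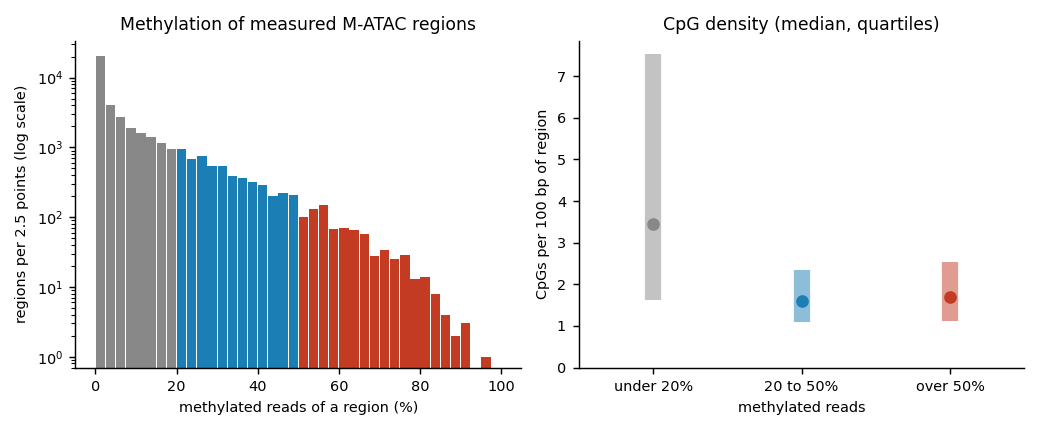
Left, number of measured M-ATAC regions (log scale) per 2.5 percentage points of methylated reads, with regions under 20% in grey, 20 to 50% in blue and over 50% in red. Right, CpGs per 100 bp of region by class, with points for medians (3.45, 1.61 and 1.68) and bars from the lower to the upper quartile.

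Methylated regions also had fewer reads summed over their cytosines. A region had a median of 34 reads over 5 counted cytosines at 20 to 50%, 27 reads over 4 cytosines over 50% and 126 reads over 13 cytosines under 20%. These sums grow with the number of cytosines. Per cytosine the medians were closer, at 7, 6 and 10 reads. The methylated share of measured regions was 46.2% among those with 15 to 19 reads, 27.2% with 30 to 59, and 1.35% with 120 or more, and the part of depth in the choice of members was not tested. With this depth 3578 members (57.2%) had a Wilson interval that reached below 20%, and 633 of the 799 regions over 50% (79.2%) one that reached 50% or less. These intervals count a read at each cytosine it covers, so they are likely too narrow. Only 27 regions exceeded 80%. Around the limits, 331 regions lay between 19% and 20% and 453 from 20% to under 21%. Just outside, a region near Lclat1 had 63 methylated of 317 reads (19.9%) and one in Actn1 29 of 146 (19.9%), and just inside, one in Sel1l3 had 24 of 120 (20%) and one whose nearest gene with a TPM value is Sema6a 26 of 130 (20%). At the upper limit, regions near Gm42610 (35 of 70 reads) and Ppp2r5c (33 of 66) were at exactly 50%, and regions in Nfasc and E2f7 (45 of 89 reads each) at 50.6%.

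The regions with the most reads are the best measured. At 20 to 50% these included an intron of Vgll4, a cofactor of TEAD transcription factors (chr6:114888938-114889384), with 133 methylated of 425 reads (31.3%, 27.1 to 35.9). An exon of Il3ra, a cytokine receptor subunit (chr14:14347159-14348291), had 180 of 415 (43.4%, 38.7 to 48.2). Over 50%, 3 of the 5 regions with the most reads lay in Sfi1, the gene of a centriole protein, with 296 methylated of 430 reads (68.8%, 64.3 to 73.0) at chr11:3134906-3135778, 106 of 192 (55.2%) at chr11:3146938-3147141 and 60.4% of 169 reads (52.8 to 67.4) at chr11:3146076-3146220. The 31 bp around 17 of 21, 4 of 4 and 6 of 6 counted cytosines of these Sfi1 regions occur more than once in the genome, so their reads cannot be placed with certainty. Vgll4, Il3ra and Btbd18 had no such cytosine.

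Repeated sequence was more frequent with more methylation. At least 1 counted cytosine with repeated 31 bp was present in 12.1% (11.2 to 13) of regions at 20 to 50% and 24.7% (21.8 to 27.8) over 50%, against 7.70% (7.43 to 7.99) under 20%. Regions of which 50% or more was repeat-masked made up 16.4%, 26.7% and 4.45%. An intron of Xpo4, a nuclear export receptor, was wholly repeat-masked and carried 63 methylated of 91 reads (69.2%, 59.1 to 77.8).

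Single cytosines are described from the same reads that chose the regions. Of 30898 counted cytosines at 20 to 50%, 66.4% were themselves at 20 to 80%, 13.8% had no methylated read and 1.62% exceeded 80%. Over 50% there were 3883 cytosines, of which 78.7% were at 20 to 80% and 17.9% above. Every counted cytosine had a methylated read in 48.6% and 95.4% of regions, and a cytosine at 0 beside one at 80% or more occurred in 9.77% and 4.38%. The median cytosine had 7 and 6 reads in the lower and the upper class, against 10 in regions under 20%. Both strands gave similar pooled values, 29.9% and 29.8% in the lower class and 60.3% and 60.8% in the upper. From the innermost to the outermost of 5 bins around the centre, pooled methylation went from 28.6% to 34.4% and from 59.6% to 63.6%, and in regions under 20% from 0.779% to 1.89%.

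In place, 1227 regions at 20 to 50% (22.5%, 21.4 to 23.6) and 163 over 50% (20.4%, 17.8 to 23.3) lay within 3 kb of a GENCODE transcription start, against 58.5% (58.0 to 59.0) under 20% and 52.9% of all measured regions. Median distances to the nearest start were 10.4, 11.8 and 1.06 kb. Exons were touched by 14.2%, 13.4% and 47.4% of regions, and 58.3%, 51.4% and 73.7% lay in a gene. On autosomes the methylated share of measured regions ran from 10.6% to 20.6%, and on the X chromosome it was 6.61% (60 of 908).

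Genes next to methylated regions had low transcript levels. The nearest gene was at a median of 0.27 TPM (95% interval 0.21 to 0.32) at 20 to 50% and 0.15 (0.08 to 0.24) over 50%, against 5.64 (5.38 to 5.86) under 20%. It reached 1 TPM in 42.9% (41.6 to 44.2) and 40.1% (36.7 to 43.5) of methylated regions, against 64.3% under 20% and 61.0% of all measured regions, and was listed at 0 in 34.4%, 36.9% and 16.4%. Within 3 kb of a start the medians were 0.65, 1.12 and 9.63 TPM, and farther away 0.19, 0.07 and 0.92 TPM. The nearest gene was protein-coding in 59.1%, 55.6% and 76.3% of regions. With the nearest protein-coding gene the medians were 6.0, 5.10 and 11.3 TPM, and with the nearest gene of at least 1 TPM they were 13.8, 14.9 and 16.8 TPM, closer together than with any gene. The median TPM was lower in methylated regions on 20 of 21 chromosomes, the exception being Y with 1 measured region.

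**Figure D3:**
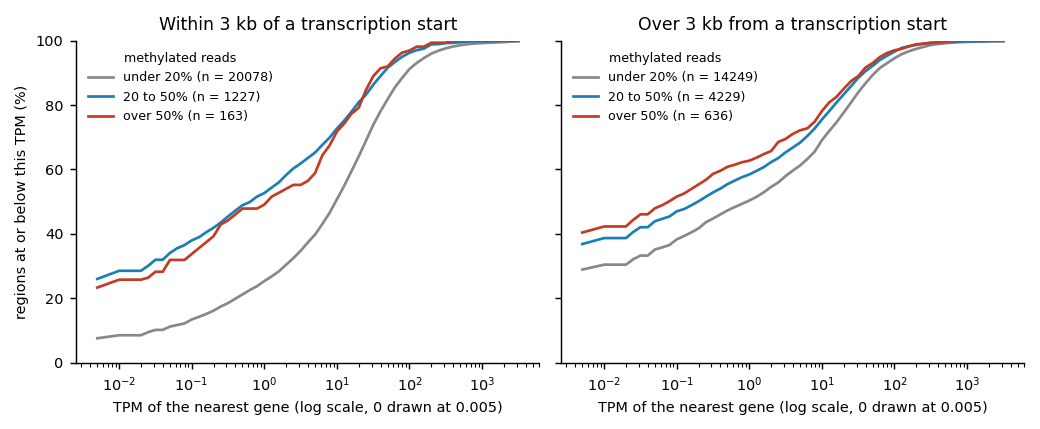
Percentage of regions (y axis) whose nearest gene is at or below a given TPM (x axis, log scale, with a TPM of 0 drawn at the left end), within 3 kb of a transcription start (left) and farther away (right), for regions under 20%, 20 to 50% and over 50% methylated reads. Near starts the curves of the methylated regions, with medians of 0.65 and 1.12 TPM, lie left of that of regions under 20%, with a median of 9.63 TPM.

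Low expression was not a property of every gene with a methylated region by its start. Rack1, the ribosomal scaffold, was at 1616 TPM with a region 1709 bp from its start (chr11:48807157-48807556) at 46.7% (34.6 to 59.1), which lies in an exon of Trim41. Hnrnpf (796 TPM), Fn1 (612), Morf4l1 (605) and Sparc (528) had regions at 22.2%, 24.1%, 47.4% and 40% in introns, each with 25 to 57 reads. Over 50%, the genes with the highest TPM were Cox7a2l (327 TPM, 61.5%), the RNA methyltransferase Nsun2 (163 TPM, 62.1%), the splicing factor Wbp11 (125 TPM, 55.2%), Etfb (105 TPM, 66.7%) and Nfu1 (92.0 TPM, 55.6%). None of these 5 was in a peak list of any single M-ATAC sample, and their intervals were wide, 44.0 to 77.3% for Nsun2 over 29 reads (chr13:69630727-69630911) and 42.5 to 67.3% for Wbp11 over 58 reads (chr6:136820393-136820532).

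Peaks of single samples were then compared with the methylated regions of the merged list. Of regions at 20 to 50%, 687 (12.6%, 11.7 to 13.5) overlapped a peak in all 4 M-ATAC lists, and of those over 50%, 60 (7.51%, 5.88 to 9.55), against 38.2% under 20% and 34.2% of all measured regions. No peak in any of the 4 lists overlapped 1700 regions at 20 to 50% (31.2%), 340 over 50% (42.6%) and 19.7% of those under 20%, beside 21.7% of all. Both M-ATAC-NC lists held 28.3% and 17.5% of methylated regions, against 55.8% under 20% and 51.4% of all. Both ATAC lists held 22.3% and 15.6%, against 47.7% and 43.7%. These lists are partly the same libraries as the merged one, and fewer cells open at a region and weaker opening in each cell cannot be told apart.

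The share of regions at 20 to 50% that overlapped a peak was 30.4%, 36%, 43% and 39.9% in M-ATAC samples 1 to 4, 36% and 41% in M-ATAC-NC, and 26.5% and 35.8% in ATAC. In the same samples regions under 20% gave 55.8%, 62.1%, 58% and 57.3%, then 61.3% and 68.4%, then 52.3% and 62.3%. In every sample the methylated regions were lower, and no methylated value reached a value of regions under 20%. Regions over 50% gave 25.4%, 26.2%, 31.8% and 26.3% in M-ATAC, 25.8% and 27% in M-ATAC-NC and 20.4% and 26.8% in ATAC.

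The gap, the share in methylated regions minus that in regions under 20% of the same sample, was -26.2 percentage points (SD 0.880, n = 4, exact sign-flip test, two-sided, p = 0.125) at 20 to 50% over the M-ATAC-NC and ATAC samples, whose libraries saw no bisulfite. Over 50% it was -36.1 (SD 3.92, n = 4, exact p = 0.125), where 0.125 is the smallest p that 4 samples allow, and both were 0.188 after Benjamini-Hochberg adjustment over 6 tests. All 4 samples were negative in both classes. The M-ATAC-NC libraries were aliquots of M-ATAC material, and merged M-ATAC reads chose the regions, so the 4 samples are not all independent of that choice. In the 2 ATAC samples the gaps were -25.8 and -26.4 at 20 to 50% and -31.9 and -35.5 over 50%. The size moved with the choice of regions: against regions under 20% within the interquartile range of M-ATAC fold of the methylated ones the gaps were -16.1 and -19.9 points, and with at least 10 reads per cytosine the gap at 20 to 50% was -15.8. The M-ATAC samples themselves had gaps of -25.3, -26.2, -15.0 and -17.5 at 20 to 50%, so samples 3 and 4 stood apart from 1 and 2. Over 50% the gaps were -30.4, -36, -26.2 and -31.1. The M-ATAC gap was 5.37 points above that of M-ATAC-NC and 5.13 above that of ATAC at 20 to 50% (exact permutation p = 0.267 and 0.200, both 0.571 adjusted over 12 tests), and 7.55 and 2.80 points above over 50% (adjusted exact p of 0.571 and 0.600), where 0.0667 is the smallest p that 4 against 2 samples allow. At 20 to 50% these differences were 3.37 and 3.12 points without M-ATAC sample 3 and 0.595 and 0.354 points with the replicate number as a block, which keeps samples 1 and 2. With samples named only by number, these p-values measure the spread between samples that may be technical. The merged M-ATAC reads also chose the regions, so the M-ATAC side of these differences is not independent of that choice. The tests therefore cannot decide whether M-ATAC differs from the other groups.

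Some methylated regions were among strong peaks. A region near Gm34149 (chr6:133313664-133314390) had a fold enrichment of 30.3 and 14 methylated of 68 reads (20.6%). Over 50%, a region near Gm7895 (chr1:94342634-94343006) had a fold of 21.8 with 21 of 29 reads methylated (72.4%, 54.3 to 85.3), and one in Nsun3 (chr16:62758311-62758699) a fold of 21.7 with 41 of 74 (55.4%, 44.1 to 66.2). All 3 were peaks in all 8 accessibility lists, as was a region near Gm24818 (chr14:107849722-107850184) with 49 of 64 reads methylated (76.6%, 64.9 to 85.3). By median the fold enrichment was 7.43 at 20 to 50%, 6.76 over 50% and 8.87 under 20%.

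**Figure D4:**
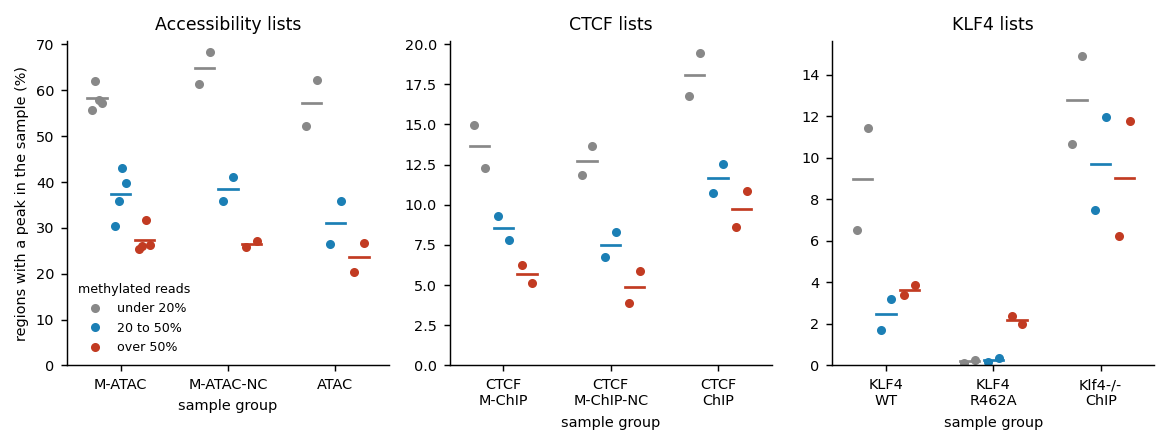
Percentage of regions that overlap a peak (y axis) in each sample of each group (x axis), for accessibility, CTCF and KLF4 lists, with 1 point per sample and a bar at the group mean; grey, blue and red are regions under 20%, 20 to 50% and over 50% methylated reads. Methylated regions lie below regions under 20% in each accessibility and CTCF group, and in the R462A mutant lists regions over 50% lie above the others.

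CTCF peaks were fewer in methylated regions but were not absent. A merged CTCF M-ChIP peak overlapped 571 regions at 20 to 50% (10.5%, 9.68 to 11.3) and 64 over 50% (8.01%, 6.32 to 10.1), against 16.2% (15.8 to 16.6) under 20% and 15.3% of all measured regions. At 20 to 50% the single samples gave 9.29% and 7.81% for CTCF M-ChIP, 6.73% and 8.30% for its unconverted aliquots and 10.7% and 12.6% for CTCF ChIP. Regions under 20% gave 15.0% and 12.3%, 11.8% and 13.6%, and 16.8% and 19.4% in the same order. The methylated regions were lower in each sample, and over 50% the shares ran from 3.88% to 10.9%. The gap was -5.59 points (SD 0.820, n = 6, negative in 6 of 6 samples, exact sign-flip p = 0.03125) at 20 to 50% and -8.05 (SD 0.560, n = 6, negative in 6 of 6, exact p = 0.03125) over 50%, where 0.03125 is the smallest p that 6 samples allow. After adjustment both were 0.0938, the smallest value that this set of 6 tests allows, so neither could pass 0.05. The unconverted aliquots were taken from CTCF M-ChIP material, so these are not 6 independent preparations. Over the 4 CTCF M-ChIP and CTCF ChIP libraries alone the gaps were -5.77 and -8.14 points, with an exact p of 0.125, the smallest that 4 libraries allow. Gaps did not differ detectably between CTCF M-ChIP and its unconverted aliquots (0.132 and -0.0896 points, exact p of 1) or CTCF ChIP (1.36 and 0.391 points, smallest adjusted exact p = 0.571), and with 2 against 2 samples p cannot go below 0.333.

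The lower CTCF share held in each quartile of M-ATAC fold, although these quartiles do not match the regions by width. In the lowest quartile of M-ATAC fold of the methylated regions it was 10% and 9.60%, against 15.2% under 20%, and in the highest quartile 8.19% and 4.03%, against 13.7%. Within 3 kb of a start the shares were 14.5%, 12.3% and 15.2%, with overlapping intervals, and farther away 9.29%, 6.92% and 17.6%. By chromosome the share was lower in methylated regions on 19 and higher on the X. When bound, methylated regions had a CTCF motif match in 85.5% and 78.1% of cases, against 86.8%, and a median CTCF fold of 10.1 and 8.67, against 11.3.

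The region in a Stra8 intron (chr6:34921913-34922261) had a CTCF fold enrichment of 25.7, a peak in all 4 M-ATAC lists and in both lists of each CTCF assay but in no M-ATAC-NC and no ATAC list, and 49 methylated of 189 reads (25.9%, 20.2 to 32.6). Its sequence is a tandem array that holds the motif match catcctctaggagtCGcaa (reverse strand, the CpG in capitals) 3 times, at chr6:34922114-34922132, chr6:34922143-34922161 and chr6:34922172-34922190. These matches were methylated at 7 of 33, 10 of 28 and 13 of 27 M-ATAC reads (21.2%, 35.7% and 48.1%) and at 5 of 39, 20 of 65 and 25 of 56 CTCF M-ChIP reads (12.8%, 30.8% and 44.6%). The score of these 3 was low (10.8). A further match at chr6:34922047-34922065 (score 8.52) had 1 of 15 M-ATAC and 0 of 13 CTCF M-ChIP reads methylated. Another at chr6:34922233-34922251 (score 10.3) had 3 of 12 and 6 of 33. The counted cytosines with repeated 31 bp, 4 of 18, are those of the first and second of the 3 identical matches. Reads cannot be placed with certainty between that first and second match.

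The Eya2 intron region (chr2:165716830-165717000), near a gene for a transcriptional cofactor with phosphatase activity, had a CTCF fold of 23.1 and the motif match agtccagaagagggCGcca (score 19.07) at chr2:165716913-165716931. In M-ATAC 19 of 21 reads were methylated (90.5%, 71.1 to 97.3) at 3 cytosines outside the motif, while the CTCF M-ChIP reads at the 2 motif cytosines were methylated in 8 of 56 (14.3%). The M-ATAC table had no counted cytosine in this motif, so the 2 assays were read at different CpGs. The region was in no single M-ATAC list. Higher CTCF folds were seen near Ccr1 (chr9:123925402-123925634, fold 36.5, 28.3% methylated) and near Gm16025 (chr1:85323264-85323448, fold 43.5, 55.7% methylated), both with 5 cytosines of repeated 31 bp. Uniquely placed examples were Jmjd1c, Arid3a and Anp32b, with CTCF folds of 20.02, 18.2 and 17.8. Their methylation was 54.5% (34.7 to 73.1), 57.9% (36.3 to 76.9) and 60% (44.6 to 73.7) over 22, 19 and 40 reads. Jmjd1c and Anp32b were in no single M-ATAC list and Arid3a was in 1. Where both assays counted the same cytosines, Anp32b had 1 of 7 M-ATAC and 5 of 17 CTCF M-ChIP reads methylated.

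CTCF M-ChIP gave a second measurement of methylation, from other libraries, at cytosines of CTCF motifs. In regions at 20 to 50%, 351 cytosines in 193 regions were counted in both assays, with 592 of 2821 M-ATAC reads methylated (21%, 19.5 to 22.5) and 782 of 4070 CTCF M-ChIP reads (19.2%, 18 to 20.5). Of the 193 regions 87 (45.1%) reached 20% in CTCF M-ChIP and 37 (19.2%) had no methylated read there. Over 50%, 16 cytosines in 14 regions gave 51.4% (42.0 to 60.8) and 43.9% (35.9 to 52.2), and 13 of the 14 regions reached 20%. In 3165 regions under 20% the values were 1.09% and 1.56%, and 72 regions (2.27%) reached 20%. An Ahr region (chr12:35503716-35504252) showed it at a single locus, with 13 of 15 M-ATAC and 10 of 19 CTCF M-ChIP reads methylated, whereas in Scn11a (chr9:119792584-119792746) it was 1 of 6 and 1 of 11.

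KLF4 peaks in both WT lists overlapped 62 regions at 20 to 50% (1.14%, 0.888 to 1.45) and 21 over 50% (2.63%, 1.73 to 3.98), against 4.93% (4.71 to 5.17) under 20% and 4.38% of all measured regions. The 2 WT samples gave 1.69% and 3.23% at 20 to 50%, 3.38% and 3.88% over 50% and 6.51% and 11.5% under 20%. The mutant samples gave 0.165% and 0.367%, 2.38% and 2.00%, and 0.125% and 0.268%, so that regions over 50% were above the rest in both. The Klf4-/- samples gave 7.48% and 12%, 6.26% and 11.8%, and 10.7% and 14.9%. Both mutant lists overlapped 3 regions at 20 to 50%, 16 over 50% (2.00%, 1.24 to 3.23) and 12 of the 34327 under 20% (0.0350%), or 0.0764% of all measured regions. All 16 mutant regions over 50% held cytosines of repeated 31 bp, 12 of them were also in a Klf4-/- list, where no KLF4 is made, and all 16 were in both WT lists. The gap was negative in both WT samples, with a mean of -6.53 points at 20 to 50% and -5.36 over 50%. It was positive in both mutant samples, with means of 0.0691 and 1.99. Pooled over WT and mutant samples it was -3.23 points (SD 4.06, n = 4, exact sign-flip p = 0.500) and -1.68 (SD 4.62, n = 4, exact p = 0.625). These pooled values mix conditions of opposite sign and describe neither. The pooled direction over 50% was not stable, being 12.1 points with at least 10 reads per cytosine and 0.284 without WT sample 2. Of the 21 regions over 50% in both WT lists 17 held repeated 31 bp, and with cytosines of unique 31 bp the share was 0.858%. WT minus mutant was -6.60 and -7.35 points (exact permutation p = 0.333, the smallest possible, adjusted 0.571), and WT minus Klf4-/- was -3.45 and -1.57 points (adjusted exact p of 0.571 and 1).

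Without any Klf4-/- peak, 43 regions at 20 to 50% (0.788%) and 8 over 50% (1.00%) remained in both WT lists, against 944 (2.75%) under 20%. An intergenic region whose nearest gene with a TPM value was Ank (chr15:27303997-27304759) had 48 methylated of 178 reads (27%, 21 to 33.9), no repeated 31 bp, and a peak in all 8 accessibility lists. One near BC048403 (chr10:121719012-121719460) had 43 of 152 (28.3%), and one near Actbl2 (chr13:111233400-111233753) 31 of 82 (37.8%). Over 50%, the first by methylated reads was at Duxf3, a copy of the cleavage-stage transcription factor Dux (chr10:58231811-58232228), with 116 of 166 reads methylated (69.9%, 62.5 to 76.3). It was in both mutant lists as well, and 6 of its 15 cytosines have repeated 31 bp. Of the 8 regions 4 were in both mutant lists and 5 held repeated 31 bp.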

How the data were processed

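Per the labels and methods, reads were trimmed with Trim Galore 0.4.4 and M-ATAC and M-ChIP reads aligned to mm10 with Bismark 0.18.1. The aligner of the unconverted aliquots is not given in the sources used here. Reads of quality under 30 and duplicates were removed with SAMtools 1.3. Peaks were called with MACS2 2.1.0 (q of 0.01, summits called) or, for KLF4, PeaKDEck. The authors deposited methylated and unmethylated counts and a percent per cytosine, with replicates merged. A deposited MACS2 peak has a fold enrichment (a ratio to local background) and a −log10 q-value, and a deposited PeaKDEck peak a p-value. Motif matches to JASPAR MA0139.1 were deposited with a FIMO score and p-value. Expression was deposited as TPM, and the notes name HTSeq.

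Summits of a region were counted once, each cytosine once, with at least 5 reads. Overlap meant at least 1 shared base. Transcription starts, exons and introns came from GENCODE M21, and TPM from the nearest gene in the RNA table. A cytosine was called repeated if the 31 bp around it occur more than once in GRCm38. Shares have Wilson 95% intervals and medians order-statistic 95% intervals. Peak lists give no read totals, so depth is that of the counted cytosines.

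Gaps per sample were compared by exact two-sided sign-flip and permutation tests with Benjamini-Hochberg adjustment over 6 and 12 tests, checked on simulated data. No test was made between classes in merged tables. The regions and gene lists were chosen with earlier results of these data known. Named in each class were the 5 regions with most reads, the 5 of highest lower bound in all 8 accessibility lists, the 5 near starts with highest TPM, the 5 of highest CTCF fold, the 5 of highest M-ATAC fold, up to 5 with KLF4 in both WT lists and no Klf4-/- list, those nearest to a listed gene and those at the limits. Ahr, Scn11a, Dazl, Tdrkh, Mael, Grb10 and the second Brdt region were chosen after their values were seen. Alternatives changed the read and cytosine minimums, the pooling of reads and strands, uniqueness, overlap, promoter width, gene choice, −log10 q, Klf4-/- removal, the comparison regions and the samples, the CTCF gaps without unconverted aliquots being added after the data were seen. Work was done in python 3.11.15 with scipy 1.17.1, numba 0.67.0, pandas 2.3.3, matplotlib 3.10.9 and numpy 2.4.6.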

Additional observations from a re-analysis of the deposited data

Results flagged for a closer look

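The WT and mutant KLF4 samples had gaps of opposite sign. At 20 to 50% both WT samples were below regions under 20% (-4.83 and -8.24 points) and both mutant samples above them (0.0397 and 0.0986), a difference of -6.60 points. Over 50% the WT gaps were -3.13 and -7.59 and the mutant gaps 2.25 and 1.73, a difference of -7.35 points. The permutation test of these differences cannot go below an exact p of 0.333. Mutant against Klf4-/- samples also had opposite signs, with differences of 3.16 points at 20 to 50% and 5.78 points over 50%, and these were not tested. The mutant shares rest on 9 and 20 regions at 20 to 50% and 19 and 16 over 50%, most of the latter in repeated sequence.

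Regions with too few cytosines for the measured set reached 20% methylated reads more often than the measured regions, of which 15.4% did. Of 14245 regions with 1 or 2 counted cytosines 6794 (47.7%, Wilson 95% interval 46.9 to 48.5) carried 20% or more methylated reads, where a count of 0 would allow up to 0.0211%. With 1 counted cytosine at the minimum depth, 1 methylated read is enough to reach 20%. Among measured regions the share at 20% or more was 46.2% with 15 to 19 reads and 1.35% with 120 or more. The 47.7% was not set against measured regions of equal depth, and the part of depth in it was not tested. The regions with 1 or 2 counted cytosines entered no other comparison.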

How the results depend on the processing

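Of 270 values recomputed under alternatives, 227 kept their direction and their side of the threshold or moved by less than their error. With at least 10 reads per cytosine 909 and 79 regions remained in the lower and upper class, and the upper class changed most, to a promoter share of 34.2% (20.4% in the lower), KLF4 in both WT lists 17.7% (1.98%), all 4 M-ATAC lists 24.1% (37.8%), a CTCF share of 12.7%, a median TPM of 0.49, a KLF4 gap of 12.1 points and a CTCF M-ChIP minus unconverted gap of 2.26, both of opposite sign to those reported. With at least 5 cytosines there were 2773 and 296 regions, with 23.9% near starts and 16.4% in all 4 lists at 20 to 50% and an upper CTCF M-ChIP difference of 0.270, which was 0.182 with the mean of cytosine percentages, where the share in all 4 lists was 13.7%. Adding both strands gave CTCF shares of 9.36% and 5.78% and all-4 shares of 10.1% and 3.36%. With a Wilson lower bound of 20%, 1878 regions were left at 20 to 50%, with 20.9% near starts, CTCF 9.21%, KLF4 1.76%, all 4 lists 14.6% and 0.14 TPM. Unique 31 bp only gave KLF4 0.858% over 50%, and removal of WT peaks that overlap Klf4-/- peaks 0.788% and 0.876%. Starts within 1 kb gave 11.7% and 9.51%. Genes of at least 1 TPM gave medians of 13.8 and 14.9 TPM and protein-coding genes 6.0 and 5.10. With −log10 q of at least 5 the all-4 shares were 7.33% and 3.75%, the upper M-ATAC minus ATAC difference -3.39 and the lower CTCF M-ChIP difference -0.0623, which was -0.0574 against regions in the interquartile range of M-ATAC fold. The CTCF gaps without the unconverted aliquots, a choice made after seeing the data, were -5.77 and -8.14. The causes were not tested.

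Leaving out each replicate kept the sign of 78 of 84 gaps and differences. The accessibility gaps ranged from -26.5 to -25.9 and from -37.5 to -34.3, and the CTCF gaps from -5.81 to -5.33 and from -8.22 to -7.91. The KLF4 gaps, pooled over WT and mutant samples, ranged from -4.34 to -1.56 and from -3.00 to 0.284. CTCF M-ChIP minus unconverted ranged from -0.462 to 0.727 and from -0.863 to 0.684, minus CTCF ChIP from 0.766 to 1.956 and from -0.383 to 1.16. M-ATAC minus M-ATAC-NC ranged from 3.37 to 7.11 and from 4.62 to 10.5, and minus ATAC from 3.12 to 6.87 and from 1.01 to 4.58. WT minus mutant ranged from -8.31 to -4.90 and from -9.58 to -5.13, and minus Klf4-/- from -5.15 to -1.74 and from -3.80 to 0.655. The upper KLF4 gap and the upper WT minus Klf4-/- difference turned positive without WT replicate 2. With M-ATAC samples 3 and 4 only, the M-ATAC minus M-ATAC-NC difference was 10.2 at 20 to 50%.

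The replicate block changed the sign of no difference. Over replicates 1 and 2 the deviations of same-numbered samples correlated at -0.0435 to 0.0196 in the 6 pairs of groups compared, and whether same-numbered aliquots and converted libraries come from 1 sample is not given by the labels. With the block, which keeps M-ATAC samples 1 and 2, the M-ATAC minus M-ATAC-NC difference was 0.595 and 5.27 points, and WT minus mutant stayed at -6.60.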
